A study of Mus musculus with 6 samples.

Results

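Immune checkpoint genes were described across tumor-bearing mammary tissue of control and DMHCA-treated NeuT/ATTAC mice. The set held 10 of the 55385 genes listed for each library, taken by gene symbol: 7 receptors carried mainly by T cells (Pdcd1, Ctla4, Lag3, Tigit, Havcr2, Btla and Icos) and 3 ligands (Cd274, Pdcd1lg2 and Cd276). All 6 libraries came from female mice carrying 2 transgenes, a constitutively active rat ErbB2 with the V664E change (NeuT) driven by the MMTV promoter and an FKBPv-caspase-8 fusion (FAT-ATTAC) driven by the FABP4 promoter. Both groups received AP20187 at 0.4 mg/kg in 3 injections per week from 6 weeks of age, a dimerizer that activates the caspase fusion, ablates part of the mammary fat and leaves fibrosis in its place. The 3 libraries labelled as treated came from mice that also ate a diet with 0.05% DMHCA, a liver X receptor agonist, from 8 weeks of age, a dose given as about 100 mg/kg. The sample labels word the treatment of the 3 controls so that it could mean AP20187 with vehicle or the vehicle of AP20187, and they name the tissue as fibrotic mammary gland, whereas the study's text describes tumors. FABP4 is known to be expressed in macrophages as well as in fat cells.

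Checkpoint receptors sit on activated T cells and other lymphocytes, and most of them dampen signalling through the T cell receptor when they meet a ligand on an antigen-presenting or tumor cell. PD-1 (Pdcd1) binds PD-L1 (Cd274) and PD-L2 (Pdcd1lg2), CTLA-4 competes with the costimulatory receptor CD28 for CD80 and CD86, and ICOS is itself a costimulatory receptor. PD-1, LAG-3, TIM-3 (Havcr2) and TIGIT accumulate on exhausted T cells in tumors, and antibodies to PD-1, PD-L1, CTLA-4 and LAG-3 are used in cancer therapy. Several members are not specific to T cells: BTLA is abundant on B cells, TIM-3 on myeloid cells, LAG-3 also marks NK cells and plasmacytoid dendritic cells, and B7-H3 (Cd276) is common on tumor epithelium and stroma.

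The libraries held between 46358654 and 63420620 estimated counts. DMHCA 1 and DMHCA 3 were nearly the same: 18.2% of 13380 genes differed between them by more than counting error, against 82.0% to 87.0% for each of the other 5 pairs of libraries within a group, so they were combined and counted as 1 sample, which left 3 control and 2 DMHCA samples. The p-values below measure the spread between these samples, and the labels do not name the animals behind them. Control 3 stood apart as rich in lymphocytes, with a summed level of 13 T cell markers of 503 TPM (a transcript abundance corrected for length and depth) against 6.03 to 51.3 in the other 5 libraries, and of 10 B cell and follicle markers of 771 against 3.58 to 78.6. Control 1 carried 8140 TPM of 4 salivary gland genes, against 13.2 to 118 elsewhere. Whether lymphoid and salivary tissue was taken along with these controls was not tested, and the control means and fold changes below include both libraries unless stated. The 5 epithelial markers summed to 2930 to 3590 TPM in the controls and 4060 to 4420 TPM with DMHCA, with Krt8 and Krt18 higher in fitted mean and the other 3 lower, and the 6 liver X receptor target genes summed to 3320 to 3390 TPM in the DMHCA libraries against 340 to 696 in the controls.

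The receptor transcripts were few, and 6 of the 7 were highest in the lymphocyte-rich Control 3, as were 26.1% of all genes tested. The 7 receptors together summed to 13.8, 7.32 and 32.7 TPM in Control 1, 2 and 3, and to 6.77, 5.83 and 7.59 TPM in DMHCA 1, 2 and 3. With DMHCA 1 and DMHCA 3 as 1 sample (7.18 TPM), both DMHCA samples were below all controls, by a narrow margin to Control 2, while DMHCA 3 taken alone was above Control 2. The 3 ligands summed to 13.6, 18.6 and 14.4 TPM in the controls and to 14.2, 13.3 and 14.4 TPM with DMHCA, a narrow range in which the groups could not be separated. The ligands were therefore present at 0.983, 2.55 and 0.439 TPM per receptor TPM in the controls and at 2.1, 2.28 and 1.9 with DMHCA, which lay inside the control range. Without Cd276, the other ligands were at 0.204, 0.0902 and 0.231 TPM per receptor TPM in the controls and 0.362, 0.304 and 0.348 with DMHCA. This second ratio lay above all controls, was not planned and was not tested. In bulk tissue, fewer cells of a type and less RNA per cell cannot be told apart.

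**Figure D1:**
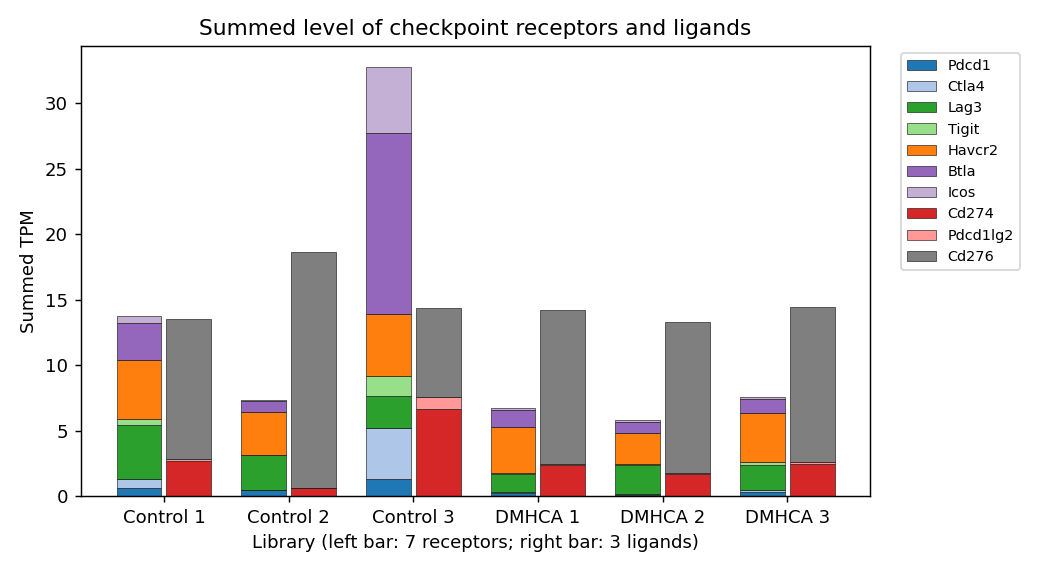
Summed TPM of the 7 receptors (left bar) and the 3 ligands (right bar) in each of the 6 libraries, stacked by gene. The receptor bars run from 5.83 TPM in DMHCA 2 to 32.7 TPM in Control 3, and the ligand bars from 13.3 to 18.6 TPM with Cd276 as their main component.

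In the fit of DMHCA against control over all genes (edgeR's quasi-likelihood test with Benjamini-Hochberg adjustment), 9 of the 10 genes passed the filter on low counts and Pdcd1lg2 did not. Ctla4 and Tigit passed it only through Control 1 and Control 3, where they were high, which favored a lower mean with DMHCA. These genes therefore add no support of their own to the counts below. Fitted without the filter, all 10 had a lower mean. All 9 had a lower mean with DMHCA, where 52% of the 19427 genes tested did, although Cd276 turned slightly higher when TPM were tested with limma. None of the 9 passed an adjusted p of 0.05, and neither did any other gene (0 of 19427, or 0%). At an unadjusted p under 0.05, Pdcd1 and Ctla4 were lower, 2 of 9, against 7.61% of all genes in either direction, 4.08% lower and 3.53% higher. In CPM, Pdcd1, Lag3 and Havcr2 lay below all controls without overlap, 3 of 9, against 12.2% of all genes. The median log2 fold change was -2.46 over the 7 receptors (the value of Tigit) and -0.54 over the 2 ligands tested, beside -0.03 over all genes tested. Without Control 3 these medians were -1.07, -0.21 and 0.01, with 5 receptors left past the filter, and 0 of 7 members had an unadjusted p under 0.05, against 5.43% of all genes. Without the filter, the 7 receptors had a median of -2.41, the 3 ligands of -0.74 and all 35390 genes with a count of -0.18.

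When the 6 libraries were entered as separate samples into DESeq2, the test the study used, 3 members passed an adjusted p of 0.05. These were Icos (adjusted p = 0.013), Ctla4 (0.017) and Btla (0.034), all lower, where 3% of 17858 genes passed and were lower and 1.96% passed and were higher. With DMHCA 1 and DMHCA 3 counted once, DESeq2 called 0 members, with Icos at an adjusted p of 0.080 and Ctla4 at 0.087, where 1.15% of 17897 genes passed and were lower and 0.33% passed and were higher. The call for those 3 receptors thus rested on counting the near-identical pair as 2 samples.

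**Figure D2:**
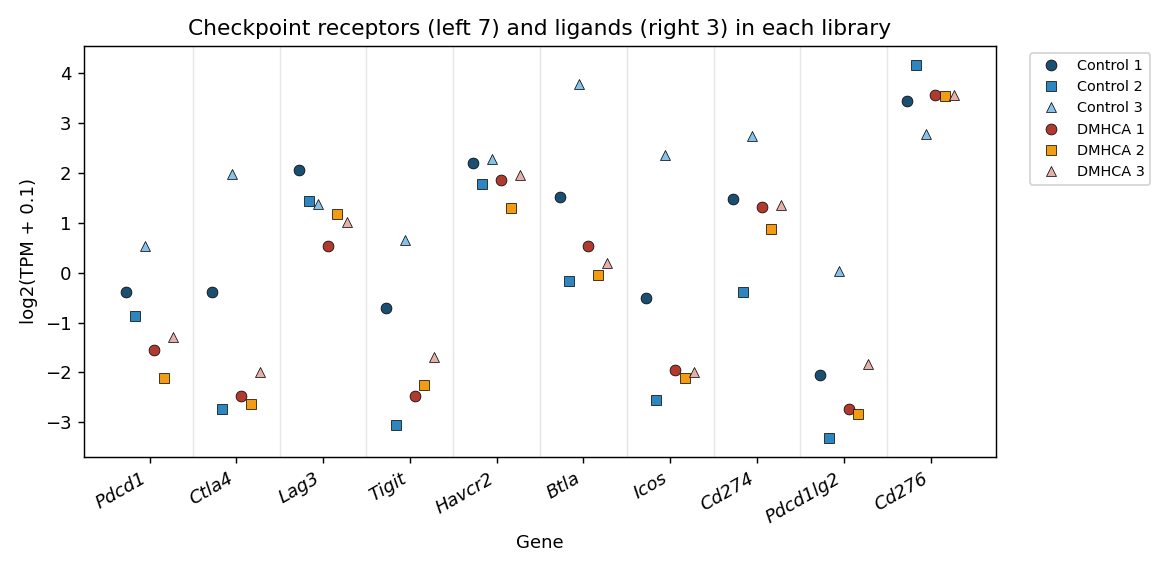
Level of the 10 checkpoint genes on a log2(TPM + 0.1) scale, with blue points for Control 1, 2 and 3 and red or orange points for DMHCA 1, 2 and 3. Of the 10 genes, 8 were highest in Control 3, and all DMHCA points lie below all control points for Pdcd1 and Lag3.

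Ranked by the mean of the 2 group means, the levels per length ran from Cd276 (11.7 TPM) through Havcr2 (3.60), Btla (3.41), Cd274 (2.70), Lag3 (2.49), Icos (1.02), Ctla4 (0.802), Pdcd1 (0.510) and Tigit (0.397) to Pdcd1lg2 (0.217). Cd276 was above Havcr2 in all libraries, while the ranges of every other pair of neighbours in this order overlapped. Cd276 ranked first in 5 of the 6 libraries, and Btla ranked first in Control 3. The makeup of the receptor pool followed the same division: Havcr2 and Lag3 together made up 62.3%, 81.1% and 22.2% of receptor TPM in Control 1, 2 and 3 and 71.6%, 77.7% and 75.4% in DMHCA 1, 2 and 3. Btla made up 42.1% in Control 3 and 10.8% to 20.1% in the other 5 libraries.

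Pdcd1 encodes PD-1 and lies on the minus strand of chromosome 1 at 94038305 to 94052553 (GRCm38). Its expected counts were 46, 43 and 90 in Control 1, 2 and 3 and 17, 8 and 21 in DMHCA 1, 2 and 3, which is 0.66, 0.45 and 1.34 TPM against 0.24, 0.13 and 0.31 TPM. All DMHCA libraries were below all controls, and the lowest control was the lymphocyte-poor Control 2. Counts normalized for library size but not for length (CPM) were 1.13 ± 0.589 (SD, n = 3) in the controls and 0.252 ± 0.144 (SD, n = 2) with DMHCA, a log2 fold change of -2.13 (SE 0.74, unadjusted p = 0.0257, adjusted p = 0.644 by edgeR). The difference had the same direction without Control 3, at -1.61, and the counts behind it were small.

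The windows of 250 bases before the RefSeq starts of Pdcd1, Ctla4 and Havcr2 (GRCm38.p6) are shown as examples from the set. Pdcd1 and Ctla4 are induced through the T cell receptor, whose signals reach DNA in part through NFAT. Whether the marked letters bear on the levels in these libraries was not tested. Capitals mark GGGCGG (a GC box) and GGAAA (the core letters of sites bound by NFAT) on either strand, so that TTTCC is GGAAA on the other strand.
Pdcd1 promoter, chr1:94052554-94052803, minus strand: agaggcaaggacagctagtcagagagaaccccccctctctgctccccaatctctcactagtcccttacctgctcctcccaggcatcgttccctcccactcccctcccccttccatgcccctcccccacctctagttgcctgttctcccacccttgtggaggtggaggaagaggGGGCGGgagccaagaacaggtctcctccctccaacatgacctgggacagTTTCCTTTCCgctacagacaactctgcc
Ctla4 promoter, chr1:60908775-60909024, plus strand: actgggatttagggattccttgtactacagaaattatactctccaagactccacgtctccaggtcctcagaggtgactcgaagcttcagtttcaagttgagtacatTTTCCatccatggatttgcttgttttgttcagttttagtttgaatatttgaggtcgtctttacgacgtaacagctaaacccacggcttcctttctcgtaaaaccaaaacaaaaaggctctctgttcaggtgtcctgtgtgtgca
Havcr2 promoter, chr11:46454681-46454930, plus strand: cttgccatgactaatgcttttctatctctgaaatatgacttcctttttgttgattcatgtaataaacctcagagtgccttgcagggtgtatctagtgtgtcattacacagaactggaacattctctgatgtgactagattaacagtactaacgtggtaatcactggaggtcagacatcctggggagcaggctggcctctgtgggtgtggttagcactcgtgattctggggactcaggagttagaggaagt
Windows were found for 8 of the 10 genes, all but Lag3 and Icos. GGAAA occurred 2 times in the Pdcd1 window, at 28 and 23 bases before the start, 1 time in that of Ctla4 at 144 bases, and 2 times in that of Tigit at 110 and 13 bases. It occurred 0 times in the windows of Havcr2 and Btla and 1 time in each of those of the ligands Cd274, Pdcd1lg2 and Cd276. These letters are common, being found in 55.6% of 32851 RefSeq promoter windows of the same length. GGGCGG occurred in the windows of Pdcd1, Cd274 and Cd276 and in 32.7% of all windows. The DR4 element bound by the liver X receptor was in 0 of the 8 windows and in 0.0152% of all, and a TATA box (TATAAA) was in 0 of the 8 and in 12.4% of all.

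Cd274 encodes PD-L1, which tumor, myeloid and stromal cells raise in response to interferon, and lies on the plus strand of chromosome 19 at 29367455 to 29388095. Its level was 2.68, 0.66 and 6.63 TPM in Control 1, 2 and 3 and 2.4, 1.73 and 2.46 TPM in DMHCA 1, 2 and 3. The DMHCA libraries sat inside the control range, between Control 2 and Control 1. In CPM the means were 8.77 ± 7.92 (SD, n = 3) and 5.06 ± 1.51 (SD, n = 2), with a log2 fold change of -0.79 (SE 0.84, adjusted p = 0.788) that turned to 0.20 without Control 3 and was -1.26 without Control 2. An antisense transcript, AC119228.1, overlaps the span of Cd274. Overlap of exons was not checked, and the strand setting of the counting is not given in the sources used here. Whether the 2 genes share reads is therefore not known.

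Pdcd1lg2, the gene for PD-L2, lies 22.8 kb from Cd274 and was close to the limit of detection. It had 8, 0 and 53 expected counts in Control 1, 2 and 3 and 3, 2 and 10 in DMHCA 1, 2 and 3, so its highest library was again Control 3. The count of 0 in Control 2 and the small counts elsewhere kept it out of the test. Fitted without the filter, its log2 fold change was -2.18 (adjusted p = 0.763). An antisense gene, A930007I19Rik, also overlaps it.

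Set against its receptor, Cd274 was 4.06, 1.47 and 4.95 TPM per TPM of Pdcd1 in the controls and 10.0, 13.3 and 7.94 in DMHCA 1, 2 and 3. Each DMHCA library was above each control in this ratio, which was chosen after its values were seen and was not tested, and which divides by as few as 8 counts. Cd274 per TPM of Ptprc, the leukocyte gene CD45, was 0.128, 0.0849 and 0.0911 in the controls and 0.210, 0.151 and 0.215 with DMHCA, also without overlap and also chosen after the values were seen. Cd274 per TPM of Cd3e was 1.12, 8.25 and 0.328 in the controls and 2.38, 3.84 and 3.42 with DMHCA, which overlapped. Pdcd1 per Ptprc was 0.0315, 0.0579 and 0.0184 in the controls and 0.0210, 0.0113 and 0.0271 with DMHCA, which overlapped.

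**Figure D3:**
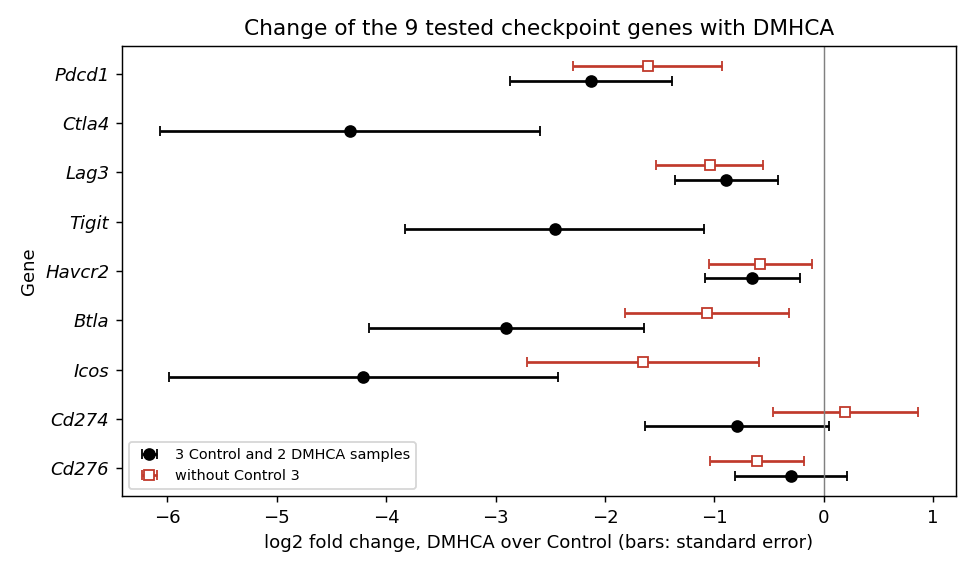
The log2 fold change of DMHCA over control for the 9 tested genes, with bars of 1 standard error, from all 5 samples (black) and without Control 3 (red, open). The 7 receptors run from -4.33 for Ctla4 to -0.65 for Havcr2 with all samples. Ctla4 and Tigit have no red point, having failed the filter without Control 3, and Cd274 moves from -0.79 to 0.20.

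Ctla4, Icos and their relative Cd28 form a cluster on chromosome 1, with Icos 62.1 kb and Cd28 113.6 kb from Ctla4, and the 3 genes had much the same profile. Ctla4, which encodes the inhibitory receptor of regulatory and activated T cells, had 46, 5 and 255 expected counts in Control 1, 2 and 3 and 6, 2 and 10 in DMHCA 1, 2 and 3. Control 2 was within the range of the DMHCA libraries, and Control 3 alone held most of the counts. In CPM the values were 2.01 ± 2.72 (SD, n = 3) and 0.0934 ± 0.0789 (SD, n = 2), a log2 fold change of -4.33 (SE 1.74, unadjusted p = 0.0435, adjusted p = 0.644).

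Icos, the inducible costimulator of follicular helper and regulatory T cells, had 73, 10 and 580 expected counts in Control 1, 2 and 3 and 20, 6 and 17 in DMHCA 1, 2 and 3. Control 3 was again far the highest, with Control 2 among the DMHCA libraries. Its log2 fold change was -4.21 (SE 1.78, unadjusted p = 0.0520, adjusted p = 0.644), and -1.65 without Control 3. Cd28 had 0.46, 0.05 and 3.84 TPM in the controls and 0.11, 0.10 and 0.11 TPM with DMHCA, and a log2 fold change of -3.86 (SE 1.66) that was -1.33 without Control 3. The effective transcript length that the authors' counting assigned to Ctla4 was 936 bases in DMHCA 2 and 1743 to 1758 bases elsewhere, and that of Icos 1312 against 2617 to 3065 bases, so TPM overstated both genes in DMHCA 2 relative to their counts of 2 and 6. Ctla4 and Icos each overlap a gene model on the same strand (Rpl18-ps1 and Gm37039).

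The ligands of this branch were less sparse. Cd86, the B7 ligand of dendritic cells, macrophages and B cells that both CD28 and CTLA-4 bind, was 4.88, 4.83 and 14.18 TPM in Control 1, 2 and 3 and 4.42, 3.0 and 4.21 TPM in DMHCA 1, 2 and 3. All DMHCA libraries were below all controls, by a narrow margin outside Control 3. Its log2 fold change was -1.34 (SE 0.57, unadjusted p = 0.0546, adjusted p = 0.644) and -0.74 without Control 3. Cd80, the other B7 ligand of CTLA-4, was 0.84, 0.36 and 2.69 TPM in the controls and 0.69, 0.44 and 0.59 TPM with DMHCA and overlapped between the groups. Icosl, the ligand of ICOS, was 5.24, 3.07 and 17.27 TPM against 3.56, 3.05 and 4.01 TPM, which overlapped in TPM but were below all controls in CPM, with a log2 fold change of -1.38 (SE 0.72) that was -0.41 without Control 3.

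Tigit, an inhibitory receptor of T and NK cells, lies on chromosome 16 and had 15, 1 and 42 expected counts in Control 1, 2 and 3 and 2.28, 3 and 6.10 in DMHCA 1, 2 and 3. Control 2 held the lowest count of the 6 libraries. The log2 fold change was -2.46 (SE 1.37, adjusted p = 0.661), and without Control 3 the gene did not pass the filter. Its ligands are much more abundant molecules of epithelium and stroma and did not share its profile. Nectin2 (CD112) was 39.37, 15.05 and 27.39 TPM in the controls and 73.65, 69.27 and 77.08 TPM with DMHCA, above all controls, with a log2 fold change of 1.23 (SE 0.33, unadjusted p = 0.00829, adjusted p = 0.644). Pvr (CD155) was 14.94, 10.65 and 12.05 TPM against 13.75, 20.07 and 13.56 TPM, which overlapped.

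Btla, the B and T lymphocyte attenuator, had the widest range of the set in TPM. Its expected counts were 303, 90 and 1517 in Control 1, 2 and 3 and 136, 61 and 99 in DMHCA 1, 2 and 3, or 2.77, 0.79 and 13.77 TPM against 1.36, 0.87 and 1.05 TPM. Control 3 stood far above the other 5 libraries, and Control 2 was the lowest library in TPM. The log2 fold change was -2.90 (SE 1.26, unadjusted p = 0.0574, adjusted p = 0.644) and -1.07 without Control 3. Tnfrsf14 (HVEM), the ligand of BTLA, had 6.55, 2.64 and 17.02 TPM in the controls and 5.10, 2.29 and 5.63 TPM with DMHCA, and its groups overlapped.

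Lag3 and Havcr2 departed from Ctla4, Icos, Btla and Tigit in that Control 3 did not dominate them. Pdcd1 lay between, highest in Control 3 but by a smaller factor. Lag3, a CD4-related receptor of MHC class II whose gene lies 16.1 kb from Cd4 on chromosome 6, had 4.10, 2.62 and 2.51 TPM in Control 1, 2 and 3 and 1.34, 2.17 and 1.92 TPM in DMHCA 1, 2 and 3. All DMHCA libraries were below all controls, and the lymphocyte-rich Control 3 was the lowest control. In CPM the values were 4.47 ± 0.902 (SD, n = 3) and 2.41 ± 0.338 (SD, n = 2), with a log2 fold change of -0.89 (SE 0.47, unadjusted p = 0.103, adjusted p = 0.649) that was -1.04 without Control 3 and ran from -1.04 to -0.76 as each library was left out in turn.

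Havcr2 encodes TIM-3, a receptor of exhausted T cells and of macrophages and dendritic cells, and lies on chromosome 11 at 46454935 to 46481255. Its level was 4.49, 3.32 and 4.77 TPM in the controls and 3.51, 2.36 and 3.80 TPM with DMHCA. In TPM the groups overlapped, with DMHCA 1 and DMHCA 3 above Control 2, whereas in CPM (8.52 ± 0.700, SD, n = 3, against 5.42 ± 1.97, SD, n = 2) both DMHCA samples were below all controls. The log2 fold change was -0.65 (SE 0.43, unadjusted p = 0.172, adjusted p = 0.687), -0.58 without Control 3 and -0.28 without DMHCA 2.

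The ligands ascribed to TIM-3 had levels far above the receptor's. Lgals9 (galectin-9) was 121.5, 82.15 and 143.15 TPM in the controls and 184.17, 66.71 and 181.46 TPM with DMHCA, so that the DMHCA libraries lay on both sides of the controls. Ceacam1, an epithelial and leukocyte adhesion molecule, was 193.63, 51.83 and 122.18 TPM against 307.51, 277.46 and 319.51 TPM, above all controls, with a log2 fold change of 1.16 (SE 0.45, unadjusted p = 0.0395, adjusted p = 0.644).

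**Figure D4:**
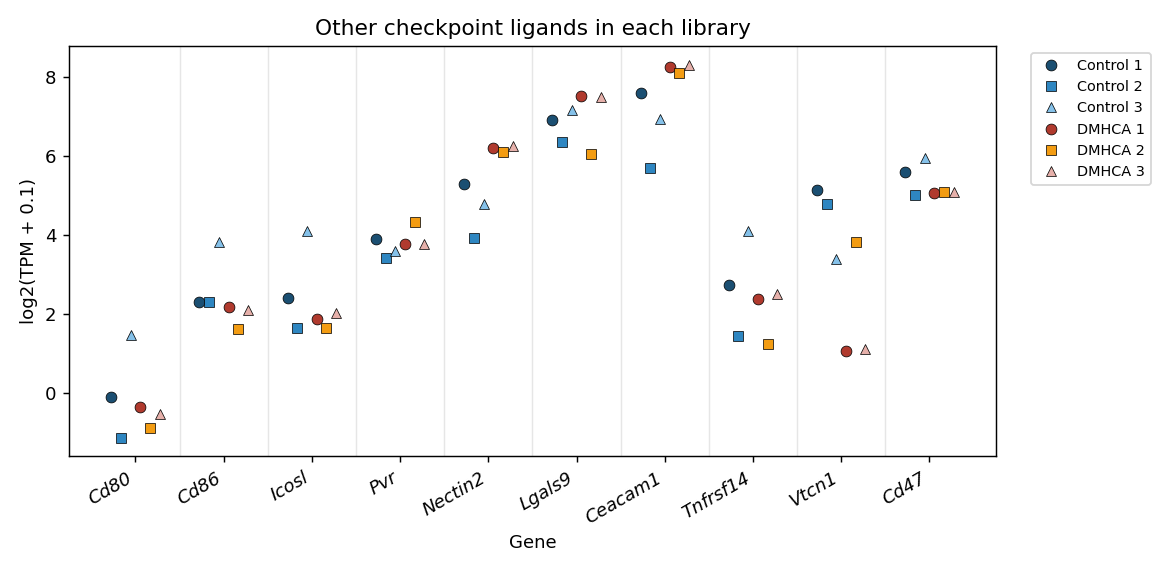
Levels of 10 further checkpoint ligands in the 6 libraries on a log2(TPM + 0.1) scale, with the same symbols as for the 10 members. Nectin2 and Ceacam1 are higher in all DMHCA libraries than in all controls, Cd86 is lower, and Vtcn1 is low at about 2 TPM in DMHCA 1 and DMHCA 3 but 14.22 TPM in DMHCA 2.

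Cd276 encodes B7-H3 and lies on the minus strand of chromosome 9 at 58524298 to 58555437. It was the most abundant member, at 10.73, 17.98 and 6.81 TPM in Control 1, 2 and 3 and 11.74, 11.55 and 11.79 TPM in DMHCA 1, 2 and 3. The DMHCA libraries were nearly equal and fell inside the control range, whose order was the reverse of that of the T cell markers: Control 2 was highest and Control 3 lowest. In CPM the values were 31.3 ± 19.6 (SD, n = 3) and 25.5 ± 2.46 (SD, n = 2), with a log2 fold change of -0.30 (SE 0.51, adjusted p = 0.873) that turned to 0.33 without Control 2 and was -0.61 without Control 3. Relative to the epithelial gene Epcam, Cd276 was 0.735%, 1.31% and 0.736% in the controls and 0.965%, 0.773% and 0.988% with DMHCA, which overlapped. Its promoter window had a GC content of 77.6% and 29 CpG dinucleotides, against a median of 52.4% and 6 over all windows and a GC content of 40.0% to 60.4% for the other 7 members with a window. Gm10657 overlaps Cd276 on the opposite strand.

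Other members of the B7 and macrophage checkpoint families were mixed. Vtcn1 (B7-H4), an epithelial B7 ligand, was 35.54, 27.64 and 10.53 TPM in the controls and 2.0, 14.22 and 2.06 TPM in DMHCA 1, 2 and 3, with a log2 fold change of -1.86 (SE 0.87) that was -3.71 without DMHCA 2, and DMHCA 2 was above Control 3. Cd47, the signal that restrains phagocytosis, was 48.69, 32.39 and 62.01 TPM against 33.41, 34.30 and 33.80 TPM, with a log2 fold change of -0.94 (SE 0.31, unadjusted p = 0.0218, adjusted p = 0.644), below all controls in CPM but not in TPM. Its receptor Sirpa was 56.69, 23.57 and 46.75 TPM against 64.72, 67.61 and 65.14 TPM, above all controls, at a log2 fold change of 0.40 (SE 0.32).

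By list, 11 of 12 other receptors of the pathway had a lower mean with DMHCA and 1, Sirpa, a higher one, at a median log2 fold change of -1.94 that was -0.38 without Control 3. None of the 12 had an adjusted or unadjusted p under 0.05 in this fit, although DESeq2 on the 6 libraries called 3 of them lower, Cd5 (adjusted p = 0.005), Cd28 (0.013) and Cd96, and 0 with DMHCA 1 and DMHCA 3 counted once. Of all genes, 3% passed and were lower on the 6 libraries, and 1.15% with that pair counted once. Of the 12, 11 were highest in Control 3, where 26.1% of all genes tested were. Cd5, an inhibitory receptor of T cells and some B cells, had the most negative log2 fold change of this list, -4.27 (SE 1.79), which was -1.57 without Control 3. Of the 16 other ligands 15 were tested, 10 lower and 5 higher in mean, with a median of -0.49 that was -0.21 without Control 3. In CPM, 2 lay above all controls (13.8% of all genes tested) and 3 below (12.2%). An unadjusted p under 0.05 was reached by 3 (7.61% of all genes), namely Nectin2, Ceacam1 and Cd47. DESeq2 on the 6 libraries called Nectin2 higher (adjusted p = 0.007) and Cd47 lower (0.039), where 1.96% of all genes passed and were higher and 3% lower. It called neither gene when DMHCA 1 and DMHCA 3 were counted once, where the shares were 0.33% and 1.15%.

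Control 3, the library richest in lymphocyte markers, was the highest for 6 of the 7 receptors, by a small margin for Havcr2, while Lag3 was at its lowest among the controls there. All 13 T cell markers had a lower mean with DMHCA and were highest in Control 3, with a median log2 fold change of -3.79 that was -1.10 without Control 3, and 3 of the 13 had an unadjusted p under 0.05, where 4.08% of all genes tested did and were lower. All 10 B cell and follicle markers were likewise lower, 9 with an unadjusted p under 0.05, at a median of -6.55 and -3.64 without Control 3. Of these markers, Cr2 and Pax5 passed the low count filter only through Control 1 and Control 3. The 10 myeloid and dendritic markers had a median of -0.22 that was 0.02 without Control 3, with 8 lower and 2 higher. S100a8, among the higher, was 198.65 TPM in DMHCA 2 and 4.22 to 28.03 TPM in the other libraries. The 5 epithelial markers had a median of -0.09, and of -0.22 without Control 3. The 4 adipocyte markers had the same order of libraries among the controls as the T cell markers, with 34.5, 9.95 and 133 TPM in sum in Control 1, 2 and 3 and 1.85, 3.27 and 1.16 TPM in DMHCA 1, 2 and 3. In CPM all 4 were below all controls, against 12.2% of all genes tested. All 4 also had an unadjusted p under 0.05, where 4.08% of all genes tested did and were lower. Their median was -4.92, and -3.51 without Control 3. None of these markers passed an adjusted p of 0.05 in this fit. With DESeq2 on the 6 libraries, where 3% of all genes passed and were lower, 5 of the 13 T cell markers passed and were lower, Cd3e (adjusted p = 0.041) and Trbc2 (0.034) among them, as were 7 of 8 B cell and follicle markers fitted and all 4 adipocyte markers. With DMHCA 1 and DMHCA 3 counted once, DESeq2 called 2, 3 and 4 markers of these lists, all lower, where 1.15% of all genes passed and were lower. Without the low count filter, edgeR called 2 adipocyte markers, among 16 of all 35390 genes. Cd3e itself was 2.4, 0.08 and 20.22 TPM in the controls and 1.01, 0.45 and 0.72 TPM with DMHCA. The part of lymphocyte or fat content in the receptor differences was not tested.

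**Figure D5:**
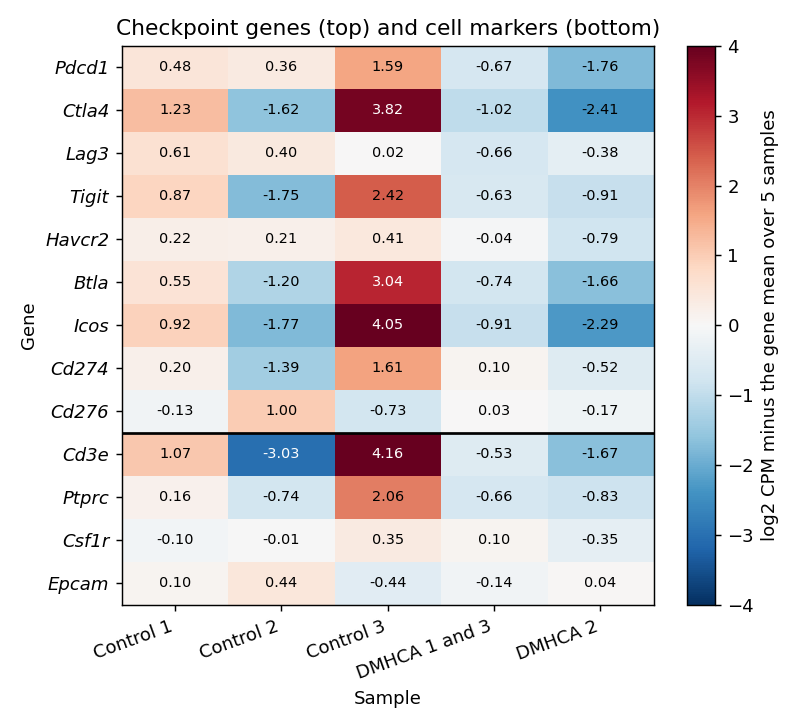
The 9 tested checkpoint genes (above the line) and 4 cell markers (below it) as log2 CPM minus the gene's mean over the 5 samples. Control 3 has the highest value of Ctla4, Icos, Btla and Tigit and of the T cell marker Cd3e. Lag3 varies from -0.66 to 0.61 and Havcr2 from -0.79 to 0.41.

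Per TPM of Cd3e, Ctla4 was 0.275, 0.625 and 0.190 in the controls and 0.0792, 0.133 and 0.208 with DMHCA, and Icos was 0.250, 0.875 and 0.249 against 0.158, 0.289 and 0.208. These ratios spanned a far smaller range than the levels themselves. With DMHCA 1 and DMHCA 3 as 1 sample, Ctla4 per Cd3e was 0.133 in both DMHCA samples, below all controls, while DMHCA 3 taken alone was not, and Icos per Cd3e overlapped. Pdcd1 per Cd3e was 0.275, 5.62 and 0.0663 in the controls and 0.238, 0.289 and 0.431 with DMHCA. Lag3 and Havcr2 per Cd3e were lowest in Control 3, at 0.124 and 0.236, and highest in Control 2, at 32.8 and 41.5. Control 2 had a Cd3e count of 6, so its ratios were imprecise, and no ratio to Cd3e of the other 6 receptors separated the groups.

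Across the 5 samples, the genes whose centred log2 CPM was nearest to that of Pdcd1 were Nckap5, Gm42432, Gm37333, Cox6b2 and A130050O07Rik, at a root-mean-square difference of 0.16 to 0.196 where the spread of Pdcd1 itself was 1.132. The 4 genes nearest to Cd274 were Epb41l3, Alox8, Iglon5 and Il12rb1 (0.085 to 0.135, own spread 0.984). The nearest to Cd276 were Tmem97, Ssbp4, Igfbp4, Pik3ip1 and Anln (0.047 to 0.118, own spread 0.562). With 5 samples and 19427 genes, close profiles are easily found, and no member of the set was among the nearest 5 of these 3 genes.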

How the data were processed

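RNA of 3 control and 3 DMHCA libraries was sequenced in bulk. Per the submitters' processing notes, the authors checked reads with FastQC 0.11.9, trimmed them with cutadapt 2.9, and used Bowtie2 2.4.1 and RSEM 1.3.1 on the mm10 mouse genome to make the deposited expected counts, TPM and FPKM per gene. The deposited expected counts are estimates, and 19.6% to 23.5% of the values over all 55385 genes in each library, zeros included, were not whole. They were therefore rounded. The deposited TPM values were used to compare levels between genes, and the deposited FPKM values were not used. RSEM weights transcript length by isoform, which moves TPM where counts are few. Strand and multimapping settings are not given in the sources used here.

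For DMHCA 1 and DMHCA 3, expected counts were summed for the fits and TPM averaged. Genes were filtered with filterByExpr (minimum count 10, total 15), normalized by TMM and tested with edgeR 4.0.16 (R 4.3.3), with DESeq2 1.42.0 and limma 3.58.1 as alternatives; the fits were tested on simulated data. Significance was set at an adjusted p of 0.05. Promoter windows and motifs were read from RefSeq for GRCm38.p6, and positions from GENCODE for GRCm38, which matched 99.6% of gene IDs. The genes and lists were chosen with earlier results of these data known. Named genes were the 10 members, list genes that a ratio, count or non-overlap uses, the extremes of each list, and the 5 genes most like Pdcd1, Cd274 and Cd276, of which 1 is not reported here. No interval for counting error was computed.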

Additional observations from a re-analysis of the deposited data

How the results depend on the processing

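The number of genes past an adjusted p of 0.05 was 0 with edgeR and limma under the settings tried, except 16 without a low count filter, and was 265 with DESeq2 on the 5 samples and 886 on the 6 libraries, where 3 of the checkpoint genes passed. Checkpoint genes with an unadjusted p under 0.05, 2 of 9 as reported (7.61% of all genes), were 4 of 10 without the filter (7.93%), 0 of 6 with a CPM of at least 1 in 2 samples (7.24%), 5 of 9 with DESeq2 on the 5 samples (11%) and 5 of 8 on the 6 libraries (17.9%), 5 of 8 with edgeR on the 6 libraries (15.6%), 1 of 9 with limma on log2(TPM + 0.1) (7.56%) or log2(TPM + 1) (7.29%) and 0 of 10 with limma without the filter (5.06%). They ran from 0 to 5 as each library was left out: 0 of 7 without Control 3 (5.43%), 0 of 10 without DMHCA 2 (4.26%), which leaves 1 DMHCA sample, assumed to vary like the controls, 1 of 7 without Control 1 (6.7%) and 5 of 9 without Control 2 (9.4%). The receptor median was -0.57 with limma on log2(TPM + 1) and ran from -3.02 to -1.07 over left-out libraries. The ligand median was -0.04, -0.08 and -0.17 with limma on log2(TPM + 0.1), log2(TPM + 1) and log2(TPM + 0.1) without the filter, and ran from -0.80 to -0.21 over left-out libraries. The fold change reversed for Cd274 without Control 3 (0.20, in a range of -1.26 to 0.20 over left-out libraries), and for Cd276 without Control 2 (0.33, range -0.61 to 0.33) and with limma (0.09, 0.07 and 0.09). The cause was not tested. Limma on TPM moved the median of all genes tested to 0.16 (+ 0.1) and 0.11 (+ 1). Of 155 refits of checkpoint genes, 147 kept direction and side of the adjusted threshold. As the main fit called 0 genes, keeping the side was close to fixed in advance, and a missing adjusted p counted as the same side. Most refits also used the same samples. Same-numbered control and DMHCA libraries correlated at -0.047, 0.316 and 0.330 in their deviations, and Control 3 with DMHCA 1 at 0.319. With DMHCA 1 and DMHCA 3 nearly the same, these values cannot decide whether libraries were paired, and the numbers are taken only as names. With the number as a replicate block, 3 of 8 checkpoint genes had an unadjusted p under 0.05 (17.2% of all genes), 0 genes passed the adjusted one, and the ligand median was -0.18. Receptors with under 100 counts in most libraries carry the widest counting error.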

Other observations

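Of 10 genes of T cell effector function and exhaustion outside the checkpoint set, 8 were tested, 7 with a lower and 1 with a higher mean with DMHCA, at a median log2 fold change of -2.21 that was -0.31 without Control 3, and none had an unadjusted p under 0.05. The one with a higher mean was Gzmb, the granule protease of cytotoxic cells, with 1.46, 0.28 and 3.87 TPM in Control 1, 2 and 3 and 6.91, 0.89 and 5.11 TPM in DMHCA 1, 2 and 3. Its log2 fold change was 0.82 (SE 1.13, adjusted p = 0.835 by edgeR) and 1.95 without Control 3, and its groups overlapped. Entpd1 (CD39), an ectonucleotidase found on exhausted T cells and on endothelium, had the highest level of the list, at 27.30, 18.23 and 33.97 TPM against 39.78, 13.46 and 37.57 TPM. The 4 NK cell markers all had a lower mean, at a median log2 fold change of -1.77 and of -0.10 without Control 3. Klrb1c departed from this median, at -2.57 (SE 0.87, adjusted p = 0.644 by edgeR) and -2.75 without Control 3, and was highest in Control 2.

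The 7 genes of the interferon response list, which holds inducers and companions of Cd274, had a median log2 fold change of -0.77 that was 0.15 without Control 3, with 5 lower and 2 higher in mean and 1, Ifngr1, with an unadjusted p under 0.05, where 7.61% of all genes tested had one. Their summed level was 248, 125 and 433 TPM in the controls and 258, 207 and 253 TPM with DMHCA, the same order of libraries among the controls as for Cd274. Foxp3, the factor of regulatory T cells, was 0.23, 0.06 and 1.23 TPM in the controls and 0.11, 0.09 and 0.14 TPM with DMHCA. Per TPM of Cd3e, Foxp3 was 0.0958, 0.75 and 0.0608 in the controls and 0.109, 0.2 and 0.194 with DMHCA, which overlapped.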
